A study of Mus musculus with 36 samples.

Results

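The genes described here encode 8 transcription factors of the T helper 1 (Th1) fate: Tbx21, Hlx, Runx3, Eomes, Stat4, Bhlhe40, Zeb2 and Twist1. They were chosen by gene symbol, and all 8 were found among the 45706 genes counted in each library. The study sequenced RNA of mouse CD4 T cells from spleen, in 36 libraries, to ask what loss of a regulatory element at the Ets1 locus does to these cells. The Ets1 protein is a DNA-binding factor of the Ets family, and T cells make much of it.

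The mutant strain is C57BL/6J-Ets1-SE-KO, here called KO, a name that stands for deletion of a super-enhancer, a stretch of DNA dense in regulatory elements, at Ets1. The labels name no Cre or other cell-specific deletion. C57BL/6J mice were the wild type (WT). In the first experiment there were 3 KO and 3 WT libraries of Th1 cells, and 3 KO and 3 WT libraries of Th2 cells. The 2 KO and 2 WT libraries of naive CD4 T cells are treated as a set of their own. Naive cells were isolated by removing other cells with antibody-coated beads. Th1 cells were grown from naive cells for 6 days on plates coated with antibody against CD3, with interleukin 12, interleukin 2 and antibody against CD28. The sources used here do not describe the Th2 culture. In a second experiment, Th1 cells were KO with a retrovirus carrying Ets1 (Ets1-RV, 4 libraries), WT with an empty retrovirus (EV, 4 libraries), untransduced KO (2 libraries) and untransduced WT (2 libraries). The other 8 libraries carry a title and a transduction label that name different viruses, and they were not compared. The sources used here give neither the ages of the mice nor whether mice were pooled.

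Each title carries a B and a T number, and the labels do not explain either. All libraries of the first experiment and of naive cells have B number 1 and differ in T number within a group, so n counts T numbers there. The spread behind their p-values, being that between T numbers, may be technical. For the second experiment, counts of libraries that share a group and a B number were added up, which gives n = 2 per group. Total gene counts were 7311614 to 10256407 per library in Th1 and Th2 cells, 5069623 to 5852673 in naive cells, and in the second experiment from 1813288 up to 6844944 per labelled library. Levels are CPM, each gene's counts scaled to the total gene counts of its library.

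Before the results, several libraries need a remark. Ets1 itself averaged 594 CPM in KO and 808 CPM in WT Th1 cells, 712 and 810 CPM in KO and WT Th2 cells, and 708 and 1810 CPM in KO and WT naive cells, and the noncoding RNA Gm27162, which lies near Ets1, was at 0 counts in all KO libraries compared here. Naive KO libraries had no count of Xist, the RNA of the inactive X chromosome, and 44.97 and 50.2 CPM of the Y-linked gene Uty, while naive WT libraries had 466 and 498 CPM of Xist and no count of Uty. Sex and genotype thus cannot be told apart in naive cells. All Th1 and Th2 libraries of the first experiment had Xist and no Uty, and in the second experiment both genotypes had Uty at B number 1 and Xist at B number 2. Summed T cell markers (Cd3e, Cd3g, Cd4, Trac, Trbc1 and Trbc2) were between 998 and 2876 CPM in the labelled libraries.

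A naive CD4 T cell becomes a Th1 cell through linked signals. Signals from the T cell receptor and from interferon gamma switch on Tbx21, which encodes T-bet, the factor that defines the fate. Interleukin 12 acts through Stat4, which strengthens Tbx21 and the gene of interferon gamma, Ifng. T-bet then works with partners such as Hlx and Runx3 at Ifng and other target genes, and represses Gata3, the factor of the Th2 fate.

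The windows before the transcription starts of 3 of these genes are shown because Ets1 is a DNA-binding factor and these genes carry the comparisons between genotypes described further on. Each is the 250 bases upstream of a start listed by RefSeq (GRCm38.p6), 5′ to 3′ on the gene's strand. Capitals mark GGAA, the core of Ets factor sites, and its reverse complement TTCC.
Tbx21, chr11:97115332-97115581, minus strand: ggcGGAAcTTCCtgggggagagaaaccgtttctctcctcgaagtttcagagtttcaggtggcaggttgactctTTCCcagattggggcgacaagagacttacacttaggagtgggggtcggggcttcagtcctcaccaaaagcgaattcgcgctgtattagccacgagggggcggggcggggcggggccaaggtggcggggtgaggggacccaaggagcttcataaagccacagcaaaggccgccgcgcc
Stat4, chr1:51986898-51987147, plus strand: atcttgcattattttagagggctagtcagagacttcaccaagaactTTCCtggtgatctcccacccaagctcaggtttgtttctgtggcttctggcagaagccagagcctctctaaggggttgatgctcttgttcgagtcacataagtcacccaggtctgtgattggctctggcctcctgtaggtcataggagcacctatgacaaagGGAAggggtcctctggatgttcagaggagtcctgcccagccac
Zeb2, chr2:45117443-45117692, minus strand: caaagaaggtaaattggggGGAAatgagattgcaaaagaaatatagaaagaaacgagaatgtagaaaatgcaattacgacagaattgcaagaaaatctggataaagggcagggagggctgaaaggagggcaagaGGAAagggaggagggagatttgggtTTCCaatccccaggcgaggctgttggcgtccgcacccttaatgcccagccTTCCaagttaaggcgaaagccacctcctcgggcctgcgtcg
GGAA occurred on either strand 3 times in the Tbx21 window, 2 times in that of Stat4 and 4 times in that of Zeb2, and 93.4% of 32851 such windows of all genes hold it. The longer GGAAGT, which contains the core, was found once in the Tbx21 window, where it overlaps the second capitalised block on the reverse strand, and in none of the Hlx, Runx3, Eomes, Stat4, Zeb2 and Twist1 windows. Of all windows 19.7% hold it. Other windows had 3 cores (Hlx), 2 (Runx3), 0 (Eomes) and 4 (Twist1). The Runx3 window had 2 matches to TGTGGTT, the letters bound by Runx factors, which 4.4% of windows hold. GGTGTGA (T-box factors), TTCNNNGAA (Stat factors), CACGTG (Bhlhe40) and CCGGAA (a longer Ets form) were in none of the 7 windows, against 3.33%, 7.02%, 6.02% and 12% of all windows. CAGGTG, bound by Zeb factors, was found once in the Tbx21 and once in the Runx3 window, and 17.2% of windows hold it. A match is a description of letters and not a binding site.

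In WT cells, 4 of the 8 genes had higher RNA in Th1 than in Th2 cells, led by Tbx21 and Hlx. The comparison shows how far the factor genes mark the fate they are named for. All tests across genes are edgeR's quasi-likelihood test on the counts, with p-values adjusted over all genes tested and a threshold of 0.05. In this comparison 4 of 8 members passed, all higher in Th1, and of all 12616 genes tested 29.5% passed, 13.7% as higher and 15.8% as lower in Th1. The median log2 fold change was 1.03 over the members and -0.01 over all genes tested. Markers of other cells also differed in this contrast: all 4 gamma-delta T markers and the 1 NK marker tested were higher in Th1, and all 3 B cell markers and the 1 dendritic marker tested were lower. Their summed levels in WT Th1 and WT Th2 libraries were 19.1 to 32.5 and 6.38 to 12.04 CPM (gamma-delta T), 3.44 to 6.24 and 1.84 to 2.72 CPM (NK), 2.80 to 5.27 and 6.11 to 18.7 CPM (B cell), and 0.917 to 2.73 and 4.10 to 6.98 CPM (dendritic, with Siglech, Xcr1 and Clec9a at 0 in both). Their part in the members' differences was not tested.

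Tbx21 (ENSMUSG00000001444, chromosome 11, 97098071 to 97115331, minus strand, GRCm38) had 66.8, 57.1 and 52.8 CPM in the WT Th1 libraries and 5.71, 5.06 and 4.74 CPM in the WT Th2 libraries. The groups were far apart, and the fold change was 3.44 on the log2 scale (SE 0.19, adjusted p = 3.12e-10 by edgeR). Hlx (ENSMUSG00000039377, chromosome 1, 184727140 to 184732619, minus strand) encodes a homeobox factor that works with T-bet at Ifng. It had 63.2, 66.0 and 46.8 CPM in Th1 and 7.61, 6.84 and 16.9 CPM in Th2 cells, a log2 fold change of 2.41 (SE 0.23, adjusted p = 3.04e-07). No Th2 library reached the lowest Th1 library of either gene.

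Zeb2 and Stat4 differed less. Zeb2 (ENSMUSG00000026872, chromosome 2, 44983632 to 45117395, minus strand), a zinc finger repressor that T-bet induces in cytotoxic T and NK cells, had 48.2, 42.2 and 48.3 CPM in WT Th1 and 21.1, 21.6 and 23.6 CPM in WT Th2 cells. Its log2 fold change was 1.00 (SE 0.11, adjusted p = 2.35e-06). Stat4 (ENSMUSG00000062939, chromosome 1, 51987148 to 52107189, plus strand), which carries the interleukin 12 signal, had 36.0, 31.2 and 37.7 CPM in Th1 and 20.1, 14.9 and 19.2 CPM in Th2 cells, a log2 fold change of 0.88 (SE 0.14, adjusted p = 0.000111). These 4 calls were also made under each of the 13 alternatives run.

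The other 4 genes did not pass. Runx3 (ENSMUSG00000070691, chromosome 4, 135120652 to 135177990, plus strand), a partner of T-bet at Ifng and a silencer of the interleukin 4 gene, had 197 to 253 CPM in Th1 and 156 to 194 CPM in Th2 cells (log2 fold change 0.24, adjusted p = 0.0812), and without Th2 library 3 it passed (adjusted p = 0.0303). Bhlhe40 (ENSMUSG00000030103, chromosome 6, 108660629 to 108666925, plus strand), a helix-loop-helix repressor that holds down the interleukin 10 gene in T cells, had 1030.0 to 1092 CPM in Th1 and 669 to 1089.9 CPM in Th2 cells. Its Th2 spread came from library 3, without which the log2 fold change was 0.42 (adjusted p = 0.00093) in place of 0.22 (adjusted p = 0.164).

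Eomes and Twist1 are near the lower limit of these libraries. Eomes (ENSMUSG00000032446, chromosome 9, 118478212 to 118486132, plus strand), a T-box factor related to T-bet, had 1.72 to 2.29 CPM in Th1 and 0.264 to 1.64 CPM in Th2 cells (log2 fold change 1.06, adjusted p = 0.11), and passed without Th2 library 2 (adjusted p = 0.0238). Twist1 (ENSMUSG00000035799, chromosome 12, 33957671 to 33959829, plus strand), a helix-loop-helix factor that restrains inflammatory genes of Th1 cells, had 0.968, 0.573 and 2.92 CPM in Th1 and 0.272, 0.274 and 1.05 CPM in Th2 cells, with overlapping groups (log2 fold change 1.41, adjusted p = 0.093). Without Th1 library 2 or Th2 library 3 its adjusted p was 0.03 and 0.0331.

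**Figure D1:**
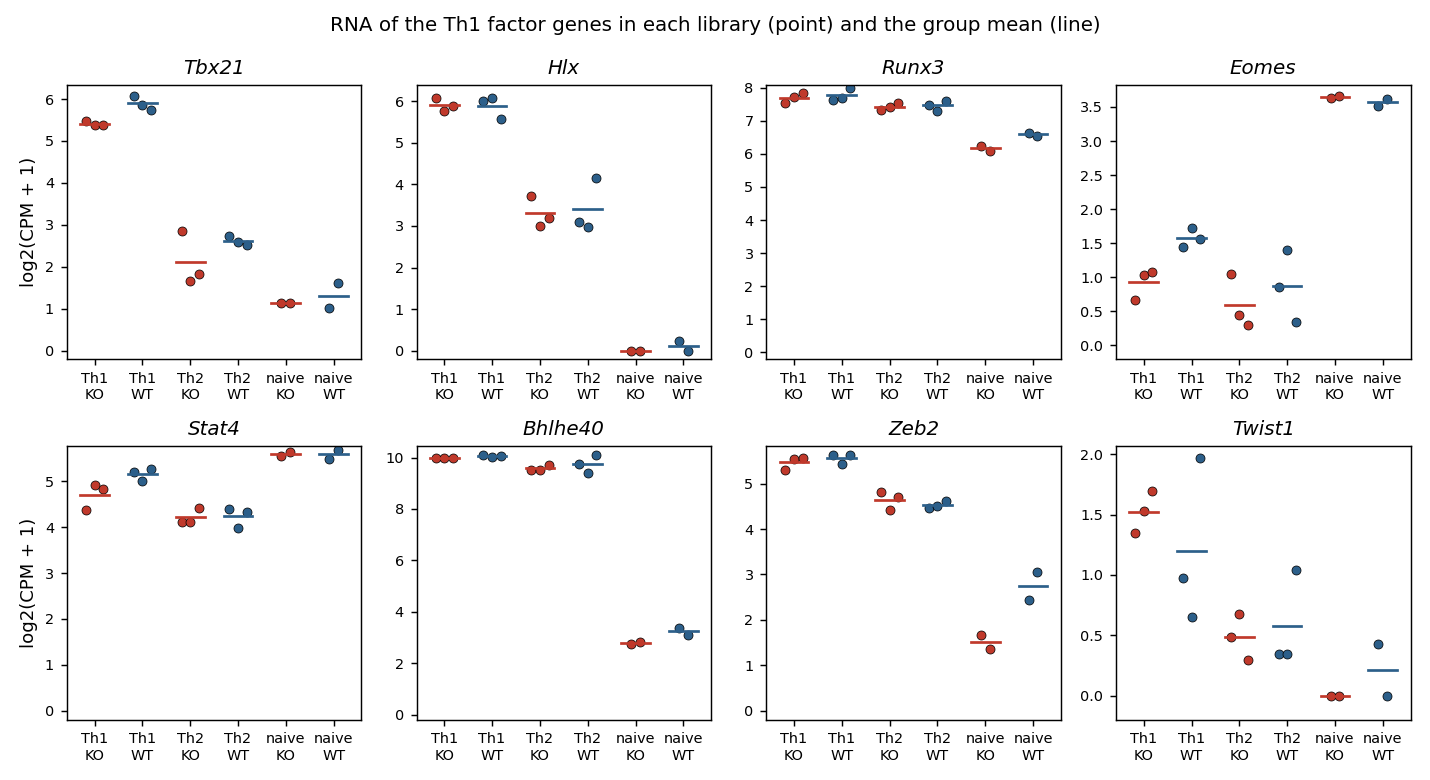
Level of each of the 8 genes as log2(CPM + 1) in every library of Th1, Th2 and naive cells, with KO in red and WT in blue; each point is 1 library and each line the mean of the plotted values. Tbx21 in WT Th1 cells lies between 52.8 and 66.8 CPM, above every KO Th1 library, while Eomes and Stat4 are highest in naive cells.

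In KO cells the same contrast called 6 of 8 members, all higher in Th1, and 17.5% of all genes tested passed, 8.01% as higher and 9.5% as lower. Tbx21 had 43.5, 41.0 and 40.4 CPM in KO Th1 and 6.26, 2.15 and 2.53 CPM in KO Th2 cells (log2 fold change 3.50, SE 0.21, adjusted p = 1.05e-09 by edgeR). Hlx had 66.9, 53.6 and 58.0 CPM in Th1 and 12.3, 6.94 and 8.16 CPM in Th2 cells (2.68, SE 0.24, adjusted p = 1.69e-07), and Zeb2 had 38.6, 45.9 and 46.7 CPM in Th1 and 27.2, 20.3 and 25.2 CPM in Th2 cells (0.82, SE 0.11, adjusted p = 3.78e-05). No KO Th2 library reached the lowest KO Th1 library of any of these 3 genes.

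The calls for Stat4 (0.49, adjusted p = 0.0241), Bhlhe40 (0.37, adjusted p = 0.0304) and Twist1 (2.14, adjusted p = 0.0208) depended on single libraries. Stat4 gave an adjusted p of 0.133 without Th1 KO library 2, 0.0979 without Th1 KO library 3, 0.0836 without Th2 KO library 1 and 0.111 without Th2 KO library 2. Bhlhe40 gave 0.0553, 0.0725 and 0.0704 without Th1 KO library 1, 2 or 3, and 0.102 and 0.12 without Th2 KO library 1 or 2. Twist1 gave 0.0544 and 0.0697 without Th1 KO library 2 or 3 and 0.0595 and 0.0985 without Th2 KO library 1 or 3. Runx3 did not pass (0.24, adjusted p = 0.108) but did without Th1 KO library 1 (0.0462).

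Against naive cells, Tbx21, Hlx, Runx3, Bhlhe40 and Zeb2 had much higher RNA in both WT cultures, and Eomes and Stat4 had lower RNA in both. Cell state and set of libraries cannot be told apart in these comparisons, and most genes differed. Between WT Th1 and naive cells all 8 members passed and so did 76.1% of 14029 genes, 40% as higher and 36.1% as lower in Th1. Between WT Th2 and naive cells 7 members passed and so did 76.9% of the genes, 40.2% as higher and 36.6% as lower in Th2. The median over all genes tested was 0.10 and 0.08 on the log2 scale, and the values below are not corrected for it. Lower in WT Th1 than in naive cells were 5 of 5 tested myeloid, 2 of 2 NKT and 1 of 2 CD8 T markers. So were 2 of 2 erythroid and platelet, 1 of 4 B cell and 6 of 6 T cell markers. Higher in Th1 were 3 of 4 gamma-delta T and 1 of 1 NK markers. In Th2 cells 4 of 5 myeloid, 2 of 2 NKT and 1 of 2 CD8 T markers were lower. Higher in Th2 were 1 of 4 B cell, 1 of 1 NK and 1 of 1 dendritic markers.

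Bhlhe40 had 9.41 and 7.52 CPM in the naive WT libraries, and its log2 fold change was 6.89 in Th1 (SE 0.19, adjusted p = 9.57e-21 by edgeR) and 6.66 in Th2 cells (adjusted p = 1.69e-20). Its RNA was thus high in both cultures and low in naive cells. Tbx21 had 1.03 and 2.05 CPM in naive WT cells and rose by 5.17 in Th1 (SE 0.29, adjusted p = 2.12e-14) and by 1.72 in Th2 cells (SE 0.41, adjusted p = 0.000591). The naive levels rest on 18 counts over both libraries, which gives a ratio of Th1 to naive CPM of 38.2 with a 95% counting interval of 24.1 to 64.6.

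Zeb2 had 4.45 and 7.35 CPM in naive WT cells and rose by 2.89 in Th1 (adjusted p = 2.48e-13) and 1.88 in Th2 cells (adjusted p = 4.28e-09). Runx3 had 97.7 and 92.9 CPM in naive WT cells and rose by 1.11 in Th1 (adjusted p = 1.93e-09) and 0.86 in Th2 cells (adjusted p = 1.76e-07). Runx3 thus had RNA in naive cells already. Hlx had 1 count in the 2 naive WT libraries together, so its ratio of Th1 to naive CPM was 680.0 with a counting interval of 122 to 26861. In KO cells Hlx had no naive count, and Th1 cells were at least 214-fold higher, against 3 counts over the naive group.

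Twist1 had 2 counts in WT naive cells, and its ratio of Th1 to naive CPM was 9.1 with a counting interval of 2.37 to 77.5. Its call between WT Th1 and naive cells (adjusted p = 0.00991) was lost without naive WT library 2 (adjusted p = 0.11) or Th1 WT library 3 (0.0818), and it did not pass in Th2 cells (adjusted p = 0.251). The remaining pair, Eomes and Stat4, had its highest levels in naive cells. Eomes had 10.4 and 11.3 CPM in naive WT cells and fell by 2.52 in Th1 (SE 0.33, adjusted p = 1.82e-07) and by 3.59 in Th2 cells (SE 0.39, adjusted p = 6.74e-09). Stat4 had 44.0 and 50.7 CPM in naive WT cells and fell by 0.51 in Th1 (adjusted p = 0.00207) and by 1.41 in Th2 cells (adjusted p = 6.63e-09). The Th1 call of Stat4 was lost without naive WT library 2 (adjusted p = 0.0666). In bulk RNA, fewer cells with a transcript and less of it per cell cannot be told apart. Summed CD8 T markers were 17.3 to 17.4 CPM in naive WT, 4.68 to 6.88 in Th1 WT and 5.40 to 8.21 in Th2 WT libraries. Summed NKT markers were 11.3 to 12.3, 1.83 to 3.01 and 1.19 to 2.33 CPM in the same groups. The part of markers of other cells in the members' differences from naive cells was not tested.

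**Figure D2:**
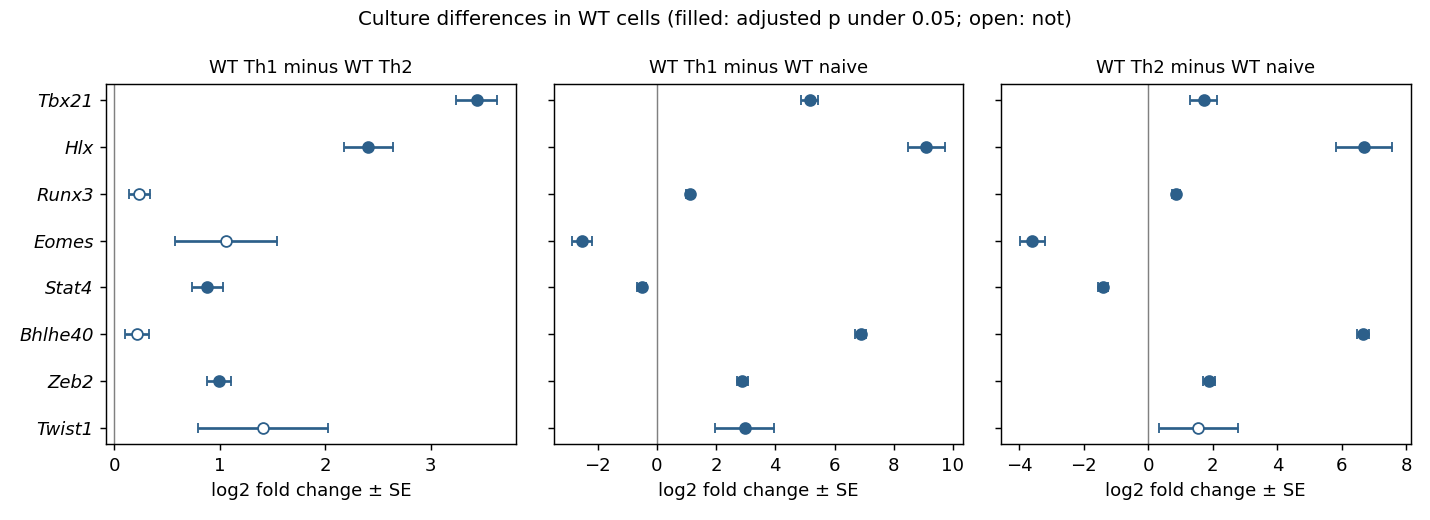
Log2 fold change with its SE for each of the 8 genes between WT Th1 and WT Th2 cells (left), WT Th1 and WT naive cells (middle) and WT Th2 and WT naive cells (right). Filled points passed the threshold; Tbx21 and Hlx lead the left panel at 3.44 and 2.41, Eomes and Stat4 are below 0 in the other panels, and the naive levels of Hlx and Twist1 rest on 1 and 2 counts.

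Per kilobase of exon the members ranked differently in the cultures. The length used merges all annotated exons of a gene, 19942 bases for Zeb2 and 3872 for Stat4, so the ranks depend on the annotation. Without this scaling Zeb2 averaged 46.2 CPM and Stat4 35.0 CPM in WT Th1 cells. In WT Th1 cells Bhlhe40 was first at 226 ± 6.58 CPM per kb (SD, n = 3), then Runx3 at 43.5 ± 6.11, Hlx at 25.7 ± 4.55 and Tbx21 at 23.7 ± 2.88 CPM per kb. Hlx and Tbx21 were within their spread of each other. Stat4 followed at 9.03 ± 0.879, Zeb2 at 2.32 ± 0.175, and Twist1 and Eomes were last at 0.914 ± 0.774 and 0.478 ± 0.0691 CPM per kb, again within their spread. In WT Th2 cells Bhlhe40 (185 ± 44.9) and Runx3 (35.2 ± 3.80) kept their places, and Stat4 at 4.67 ± 0.719 and Hlx at 4.58 ± 2.45 CPM per kb stood ahead of Tbx21 at 2.08 ± 0.197. In WT naive cells Runx3 was first at 19.1 ± 0.671 and Stat4 second at 12.2 ± 1.24 (n = 2), with Eomes at 2.61 ± 0.143 and Bhlhe40 at 1.80 ± 0.284 CPM per kb behind them.

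In each KO to WT comparison of Th1 cells Tbx21 RNA was at a lower level in KO, under all alternatives run, and it was the only member called when both experiments were fitted together. The question is whether loss of the Ets1 element changes the factors that set the Th1 fate. In the first experiment Tbx21 had 43.5, 41.0 and 40.4 CPM in KO Th1 and 66.8, 57.1 and 52.8 CPM in WT Th1 libraries, so every KO library lay under every WT library. The log2 fold change of -0.51 (SE 0.14), a KO level 0.703 times that of WT, missed the threshold (adjusted p = 0.0557 by edgeR). It passed without WT library 3 (0.0373), in DESeq2 (0.0213), and with the KO and WT Th1 libraries fitted apart from the Th2 libraries (0.0126), and its adjusted p went up to 0.302 over the alternatives.

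In this first experiment edgeR called 0 of the 8 members between KO and WT Th1 cells, where 3.66% of all 12616 genes passed, 2.16% as higher and 1.51% as lower in KO. Without adjustment Tbx21, Stat4 and Eomes, 3 of 8, had p under 0.05, as did 2028 of the 12616 genes, and DESeq2 called Tbx21 alone, with 4.09% of all genes. Stat4 had 19.6, 29.2 and 27.5 CPM in KO and 36.0, 31.2 and 37.7 CPM in WT cells, and the groups did not overlap (log2 fold change -0.46, SE 0.13, adjusted p = 0.0627). Eomes had 0.592, 1.05 and 1.12 CPM in KO and 1.72, 2.29 and 1.95 CPM in WT cells, again without overlap, on 26 and 56 counts in all (-1.09, SE 0.46, adjusted p = 0.238).

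The other 5 members had fold changes close to 0 or wide errors. Hlx averaged 59.5 ± 6.74 CPM in KO and 58.7 ± 10.4 CPM in WT Th1 cells (SD, n = 3 each), a log2 fold change of 0.01 with an SE of 0.19. Runx3 was at -0.08 (SE 0.10), Bhlhe40 at -0.08 (SE 0.11) and Zeb2 at -0.09 (SE 0.10), and Twist1 at 0.30 (SE 0.47). Bhlhe40 had 1015, 1014 and 1006 CPM in KO and 1092, 1030.0 and 1061 CPM in WT cells, so its groups did not overlap although they differ little.

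The untransduced Th1 cells of the second experiment gave a separate set of libraries. Tbx21 had 95.0 and 75.6 CPM in KO and 162 and 119 CPM in WT cells, and KO was lower than WT at both B numbers, at 58.6% of WT at B number 1 and 63.6% at B number 2. The log2 fold change was -0.65 (SE 0.19, adjusted p = 0.124 by edgeR), and 0 of 8 members passed by edgeR and 0 by DESeq2, where 1.24% of 11072 genes passed in edgeR, 0.605% as higher and 0.632% as lower in KO. Without adjustment Tbx21, Hlx and Twist1, 3 of 8, had p under 0.05, as did 1557 of the 11072 genes. Sex goes with the B number in these libraries, and with it as a term Tbx21 passed (adjusted p = 0.0286).

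Hlx had 37.6 and 49.6 CPM in KO and 34.2 and 22.9 CPM in WT cells (0.65, SE 0.18, adjusted p = 0.0938), that is 110.0% of WT at B number 1 and 216% at B number 2. Twist1 had 3.81 and 6.62 CPM in KO and 2.26 and 1.61 CPM in WT cells, on 26 and 20 counts (1.41, SE 0.50, adjusted p = 0.206). Both genes were higher in KO at both B numbers here, while in the first experiment Hlx was at 0.01 and Twist1 at 0.30. Stat4 overlapped, with 19.9 and 22.6 CPM in KO and 34.2 and 19.3 CPM in WT cells (-0.26, SE 0.29, adjusted p = 0.752), and so did Eomes, with 2.45 and 3.86 CPM in KO and 8.29 and 3.51 CPM in WT cells (-0.86, SE 0.58, adjusted p = 0.56).

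The remaining 3 genes gave small differences in the untransduced cells. Bhlhe40 had 937 and 899 CPM in KO and 1048 and 991 CPM in WT cells, without overlap (-0.11, SE 0.14). Runx3 had 201 and 157 CPM in KO and 178 and 122 CPM in WT cells (0.32, SE 0.18), higher in KO at both B numbers though the groups overlapped. Zeb2 had 64.2 and 94.3 CPM in KO and 73.8 and 53.8 CPM in WT cells (0.34, SE 0.18), so its direction differed between the B numbers.

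The Th1 libraries of the first experiment and the untransduced Th1 libraries of the second were then fitted together with the experiment as a term, a fit chosen after the data were seen. Libraries of the first experiment that differ in T number alone entered as separate replicates, and no alternative summed them. The spread behind the p-values may thus be partly technical. In this joint fit 4.45% of 11768 genes passed, 1.84% as lower in KO, 2.62% as higher, and of the 8 members Tbx21 alone passed, also in DESeq2, which called 5.45% of the genes. Its log2 fold change was -0.55 (SE 0.09, adjusted p = 0.00108 by edgeR), and KO was lower than WT in the first experiment and at both B numbers of the second. It passed under all 15 alternatives run, between -0.61 and -0.51 with adjusted p from 3.34e-08 to 0.00641. Eomes (-0.99, SE 0.29, adjusted p = 0.0645) and Stat4 (-0.40, SE 0.13, adjusted p = 0.0839) missed the threshold, and passed without untransduced WT library 2 (0.0258 and 0.0255). Twist1 (0.68, SE 0.37, adjusted p = 0.375) passed without Th1 WT library 3 of the first experiment (0.0191). Hlx, Runx3, Bhlhe40 and Zeb2 lay between -0.09 and 0.20.

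**Figure D3:**
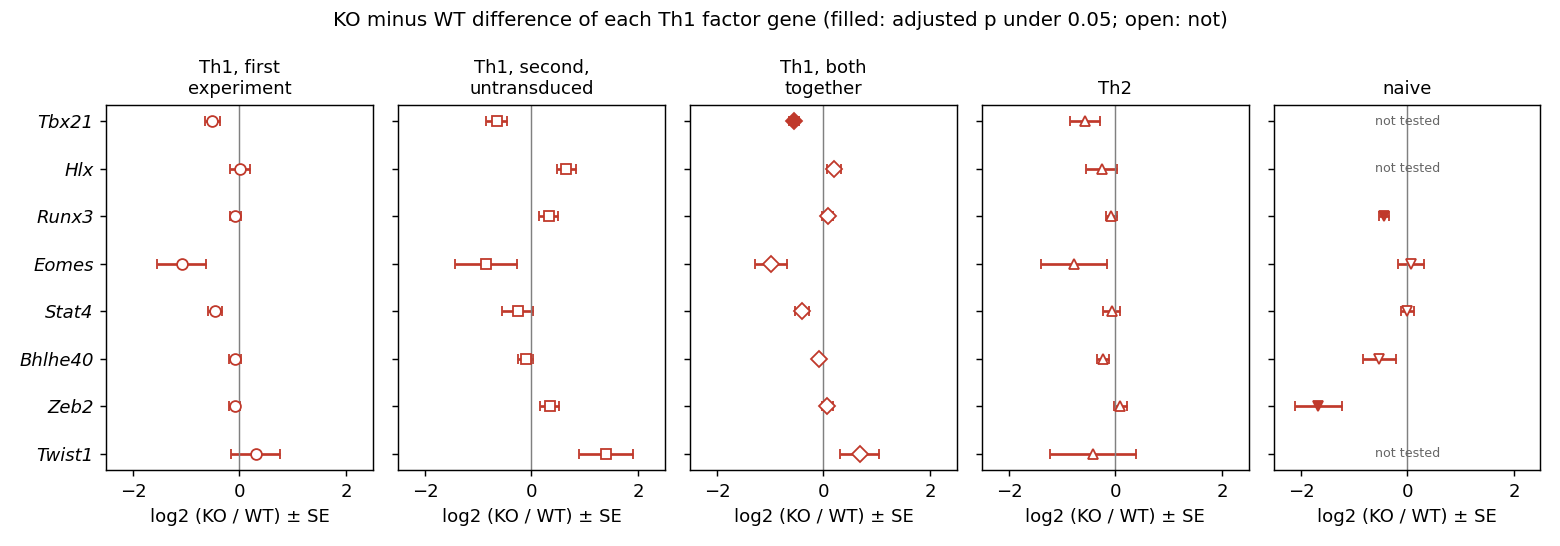
KO minus WT difference of each of the 8 genes on the log2 scale, with its SE, in Th1 cells of the first experiment, untransduced Th1 cells of the second, both together, Th2 cells and naive cells. Filled points passed the threshold. Tbx21 sits between -0.65 and -0.51 in the 3 Th1 panels and Zeb2 at -1.67 in naive cells, while 3 genes were too low for a test in naive cells.

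Markers of gamma-delta T cells moved with genotype in Th1 cells. The summed level of Trdc, Tcrg-C1, Tcrg-C2 and Tcrg-C4 was 4.11 to 9.58 CPM in KO and 19.1 to 32.5 CPM in WT Th1 cells of the first experiment, with 4 of 4 markers called lower, and 1.09 to 1.10 CPM in KO and 8.77 to 8.79 CPM in WT untransduced cells, with 1 of the 2 markers tested called lower. Their part in the Tbx21 difference was not tested. The NK cell markers Ncr1, Klra4 and Klra8 had no count in KO Th1 cells and Klra8 and Klra9 had none in WT Th1 cells, and of 7 such markers 1 was high enough for a test, with no call. The summed level of that list was 3.37 to 4.61 CPM in KO and 3.44 to 6.24 CPM in WT Th1 cells. Of the CD8 T cell markers Cd8a and Cd8b1, the 1 tested was higher in KO Th1 cells of the first experiment. Their sums were 6.95 to 9.82 CPM in KO and 4.68 to 6.88 CPM in WT. Cd8b1 made up most of them, at 6.22 to 9.23 CPM in KO and 3.7 to 5.39 CPM in WT. Cd8a went the other way, at 0.41 to 0.74 CPM in KO and 0.75 to 1.49 CPM in WT.

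Several genes linked to T-bet were lower in KO Th1 cells. The gene lists in this and the next paragraphs were chosen with earlier results of these data known, so their counts are descriptions. Of a list of 14 genes linked to T-bet in Th1 cells, 13 were tested in the first experiment, 6 were lower in KO and 0 higher, beside 1.51% of all genes lower, with a median log2 fold change of -0.78 against 0.00 over all genes. Prf1, the gene of perforin, had 11.4 ± 1.91 CPM in KO and 54.9 ± 11.8 CPM in WT cells (-2.27, SE 0.24, adjusted p = 4.3e-05, n = 3 each, by edgeR). Ifng had 285 ± 88.7 CPM in KO and 738 ± 221 CPM in WT cells (-1.38, adjusted p = 0.000609), and Klrd1, an NK cell receptor chain, changed by -2.19 (adjusted p = 0.00121). In untransduced cells 3 of 13 were lower, beside 0.632% of all genes, namely Ccl3, a chemokine gene (-2.23, adjusted p = 0.000216), Ifng (-1.63, adjusted p = 0.00163) and Prf1 (-1.34, adjusted p = 0.0208). In the joint fit 9 of 13 were lower and 0 higher, beside 1.84% of all genes lower. In WT cells all 13 were higher in Th1 than in Th2 cells, beside 13.7% of all genes, for a list picked as Th1 genes. The part of Tbx21 in the KO to WT differences of these genes was not tested, nor was that of the cells behind the gamma-delta T markers.

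Genes that act upstream of the factors were listed too. Of 10 genes of the interleukin 12, interferon gamma and interleukin 18 signals, 1 was lower in KO Th1 cells of the first experiment, Il18rap, a subunit of the interleukin 18 receptor, with 4.92 ± 0.225 CPM in KO and 13.6 ± 3.43 CPM in WT cells (-1.47, adjusted p = 0.00177). In the joint fit Il18rap (-1.28, adjusted p = 0.000398) and its partner Il18r1 (-0.72, adjusted p = 0.0483) were lower and 0 were higher, with a median of -0.13. Among 9 tested paralogs and partners of the members, Bhlhe41, the paralog of Bhlhe40, was higher in KO Th1 cells of the first experiment, with 3.99 ± 0.867 CPM in KO and 0.719 ± 0.475 CPM in WT (2.40, SE 0.34, adjusted p = 0.000661), and 8 did not pass. Of this list 8 genes were tested in untransduced cells and 8 in the joint fit, and 0 passed in either. In WT cells Bhlhe41 was lower in Th1 than in Th2 cells (-2.73, adjusted p = 6.51e-06 by edgeR). Of all genes tested in KO against WT Th1 cells, 1.51% were lower and 2.16% higher in the first experiment. In the joint fit 1.84% were lower.

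Of 9 tested factors of other fates, 6 were higher and 0 lower in naive KO cells, beside 8.75% of all genes higher. Sex and genotype cannot be told apart there. In KO Th1 cells of the first experiment 2 of 9 tested passed, both higher, beside 2.16% of all genes higher. Maf, a factor of interleukin 4 and 10 expression, had 139.6 ± 65.3 CPM in KO and 67.9 ± 14.2 CPM in WT cells (1.03, adjusted p = 0.0145). Gata3 had 272 ± 79.97 CPM in KO and 152 ± 57.9 CPM in WT cells (0.84, adjusted p = 0.0227). Both were called higher again in the joint fit (Maf 0.99, adjusted p = 0.00958; Gata3 0.95, adjusted p = 0.0104), while in untransduced cells alone neither passed (0.71, adjusted p = 0.296, and 1.40, adjusted p = 0.0881).

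In Th2 cells edgeR called 0 of the 8 members between KO and WT, and 0 had an unadjusted p under 0.05 or passed in DESeq2, where 0.325% of all genes tested passed, 0.103% as higher and 0.222% as lower in KO. Tbx21 had 6.26, 2.15 and 2.53 CPM in KO and 5.71, 5.06 and 4.74 CPM in WT Th2 cells. KO library 1 stood above all WT libraries and the other 2 below them (-0.57, SE 0.29, adjusted p = 0.563), and without KO library 1 the difference was -1.18 (adjusted p = 0.0423). Stat4 was at -0.07 (SE 0.15), Runx3 at -0.08 (SE 0.10), Zeb2 at 0.09 (SE 0.12), Bhlhe40 at -0.23 (SE 0.11) and Hlx at -0.26 (SE 0.29). Eomes (13 and 20 counts) and Twist1 (10 and 12 counts in KO and WT) were low, and small differences were not detectable at this depth.

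Whether the genotype effect differed between Th1 and Th2 cells was tested directly. In edgeR 0 of 12616 genes passed, 1226 had a p under 0.05 before adjustment, and by DESeq2 20 genes and 0 members passed. The KO effect on Tbx21 was 0.07 higher in Th1 than in Th2 cells on the log2 scale (SE 0.31), and that on Stat4 was lower, at -0.39 (SE 0.21, adjusted p = 0.561). A KO effect on Tbx21 that differs between Th1 and Th2 cells was thus not shown.

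In naive cells, Zeb2 and Runx3 were lower in KO, among 5 members high enough for a test; Tbx21, Hlx and Twist1 were not. Of all 11246 genes tested 17.7% passed, 8.75% as higher and 8.92% as lower in KO, so 2 calls among 5 members stand against a high background. Zeb2 had 2.17 and 1.56 CPM in KO and 4.45 and 7.35 CPM in WT naive cells, on 20 and 69 counts, with no overlap (-1.67, SE 0.44, adjusted p = 0.00218 by edgeR). It did not pass in DESeq2 (0.0734) or without WT library 2 (0.201), KO library 1 (0.144) or KO library 2 (0.237). Runx3 had 74.8 and 67.4 CPM in KO and 97.7 and 92.9 CPM in WT cells (-0.44, SE 0.10, adjusted p = 0.000235), and did not pass without KO library 1 (0.0642) or KO library 2 (0.129).

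Neither Eomes nor Stat4, the members with their highest levels in naive cells, passed there. Stat4 had 46.0 and 49.2 CPM in KO and 44.0 and 50.7 CPM in WT cells, with KO inside the WT range (SE 0.12, adjusted p = 0.996), and Eomes had 11.4 and 11.6 CPM in KO and 10.4 and 11.3 CPM in WT cells, without overlap (0.08, SE 0.24). Bhlhe40 had 5.72 and 6.06 CPM in KO and 9.41 and 7.52 CPM in WT cells (-0.53, SE 0.31, adjusted p = 0.251). Tbx21 had 13 counts in KO and 18 in WT.

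Markers of other cells and a heat shock gene also stood apart between the naive groups. Summed myeloid markers, of a lineage that expresses Zeb2, were 12.6 to 15.6 CPM in KO and 16.6 to 19.8 CPM in WT naive libraries, with 2 lower and 1 higher of 4 tested, and summed erythroid and platelet markers were 5.89 to 6.90 CPM in KO and 16.7 to 16.9 CPM in WT, with 2 of 2 lower. Summed CD8 T cell markers were 34.98 to 35.5 CPM in KO and 17.3 to 17.4 CPM in WT, with the 1 tested higher in KO. Within that sum Cd8a went the other way, at 0.39 to 0.52 CPM in KO and 0.68 to 1.88 CPM in WT. The sum of Zbtb16 and Cd1d1, listed as NKT cell markers, was 17.5 to 21.9 CPM in KO and 11.3 to 12.3 CPM in WT. Of these 2 genes 1 was called higher and 0 lower. The higher sum came from Cd1d1 alone. Zbtb16 went the other way, at 3.46 to 4.73 CPM in KO and 5.98 to 6.50 CPM in WT, so these genes gave no common direction. Summed T cell markers were 2646 to 2876 CPM in KO and 2379 to 2399 CPM in WT, with 4 of 6 higher. The heat shock gene Hspa1a averaged 342 CPM in KO and 23.2 CPM in WT naive cells. Further marker sums were lower in KO than in WT naive libraries. They were 0.346 to 0.592 and 2.05 to 2.22 CPM (NK), and 0 to 0.173 and 1.37 to 1.54 CPM (dendritic). Gamma-delta T markers had 6.06 to 6.11 and 7.70 to 13.8 CPM, and B cell markers 2.56 to 4.50 and 5.30 to 9.06 CPM. Of these lists 1 gamma-delta T marker was high enough for a test, with no call. The part of these markers, of Hspa1a and of sex in the Zeb2 and Runx3 differences was not tested.

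Zeb2, called lower in naive KO cells, was at -0.09 (SE 0.10) in Th1 cells, and the change in effect was itself tested. The KO effect on Zeb2 was 1.60 higher in Th1 than in naive cells (SE 0.37, adjusted p = 0.0168), where Zeb2 was the 1 member called and 3.05% of 14029 genes passed, 1.6% as higher and 1.45% as lower. The call was lost without naive WT library 2 (0.217), naive KO library 1 (0.0536) or naive KO library 2 (0.167). For Runx3 the same difference was 0.36 (SE 0.16, adjusted p = 0.255), for Eomes -1.15 (SE 0.52, adjusted p = 0.276) and for Stat4 -0.46 (SE 0.20, adjusted p = 0.266), none of which passed.

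The second experiment asked what returning Ets1 by retrovirus does to KO Th1 cells. Ets1 RNA in KO cells with Ets1-RV was 457 and 387 CPM at B numbers 1 and 2, against 214 and 239 CPM in untransduced KO cells, and above the 385 and 318 CPM of WT cells with EV. For Tbx21, KO cells with Ets1-RV had 115 and 75.4 CPM, against 168 and 124 CPM in WT cells with EV, that is 68.6% and 60.6% of WT within a B number. The log2 fold change was -0.61 (SE 0.19, adjusted p = 0.218 by edgeR, and 0.0416 with the sex that goes with the B number as a term), and the 4 unsummed KO libraries, at 125, 106, 74.9 and 76.0 CPM, overlapped the WT libraries at 168, 167, 112 and 134 CPM only through B number 1 of KO and B number 2 of WT. Summed gamma-delta T markers were 0.358 to 1.47 CPM in KO with Ets1-RV and 8.49 to 16.8 CPM in WT with EV, with 2 of 2 tested called lower, and their part in the Tbx21 difference was not tested.

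Against untransduced KO cells, at 95.0 and 75.6 CPM, Tbx21 with Ets1-RV was at 121% at B number 1 and 99.8% at B number 2 (0.09, SE 0.19, adjusted p = 0.914), while Ets1 was at 213% and 162%. The gap between KO and WT in Tbx21 was 0.04 smaller with the viruses than without on the log2 scale (SE 0.27). The KO cells without Ets1-RV were untransduced, so the Ets1 cargo and transduction itself cannot be told apart in KO cells. In WT cells with EV, Tbx21 was at 103% and 105% of untransduced cells (0.05, SE 0.18).

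Hlx, Runx3 and Twist1 had lower levels in KO cells with Ets1-RV than in untransduced KO cells at both B numbers, and none passed the test. Twist1 had 1.29 and 1.36 CPM with Ets1-RV and 3.81 and 6.62 CPM without (-1.92, SE 0.50, adjusted p = 0.168), Hlx had 31.8 and 31.1 CPM with and 37.6 and 49.6 CPM without (-0.49, SE 0.17, adjusted p = 0.324), and Runx3 had 130.2 and 128 CPM with and 201 and 157 CPM without (-0.53, SE 0.18, adjusted p = 0.292). For comparison, WT cells with EV had 38.5 and 27.8 CPM of Hlx and 1.28 and 1.08 CPM of Twist1. Twist1 was also lower with EV than without in WT cells, at 56.5% and 67.4%.

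The others did not stand apart by group. Zeb2 had 77.4 and 73.7 CPM in KO cells with Ets1-RV and 74.7 and 52.0 CPM in WT cells with EV (0.26, SE 0.16). Bhlhe40 had 1142 and 902 CPM in KO cells with Ets1-RV and 1045 and 923 CPM in WT cells with EV (0.06, SE 0.14). Stat4 was at -0.29 (SE 0.25) and Eomes at 0.02 (SE 0.44) in the same comparison, with overlapping groups for each of these 4 genes.

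Of the 8 members edgeR called 0 between KO with Ets1-RV and WT with EV (0.56% of 11072 genes passed, 0.298% as higher and 0.262% as lower, and 1064 genes and 1 member, Tbx21, had an unadjusted p under 0.05), 0 between KO with Ets1-RV and untransduced KO cells (0.19% passed, 0.126% as higher and 0.0632% as lower, and 1162 genes and 3 members had such a p), and 0 between WT with EV and untransduced WT cells (0% passed, and 268 genes and 0 members had such a p). For the gap contrast 0 genes passed, with 528 genes and 1 member, Hlx, below 0.05 without adjustment. By DESeq2 the calls were 0 members in each of these 4 comparisons, with 58, 34, 0 and 3 genes of all in the order given. Comparisons that share a group of libraries are not independent of each other.

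Among genes linked to T-bet, 1 of 13 tested differed between KO cells with Ets1-RV and untransduced KO cells. Ccl3 had 31.5 ± 9.21 CPM in KO with Ets1-RV and 9.17 ± 1.27 CPM in untransduced KO cells (1.68, SE 0.24, adjusted p = 0.013, n = 2 each, by edgeR). Ifng had 769 ± 275 and 359 ± 92.6 CPM in the same groups (1.06, SE 0.21, adjusted p = 0.0514). Between KO with Ets1-RV and WT with EV, Prf1 alone of the 13 was lower, with 14.4 ± 2.56 CPM in KO and 30.3 ± 7.40 CPM in WT (-1.06, adjusted p = 0.033), and Gata3 was higher, with 53.0 ± 30.5 CPM in KO and 8.60 ± 0.173 CPM in WT (2.65, adjusted p = 0.00248). Gamma-delta T markers were lower in KO in this comparison too, and their part in the Prf1 difference was not tested.

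**Figure D4:**
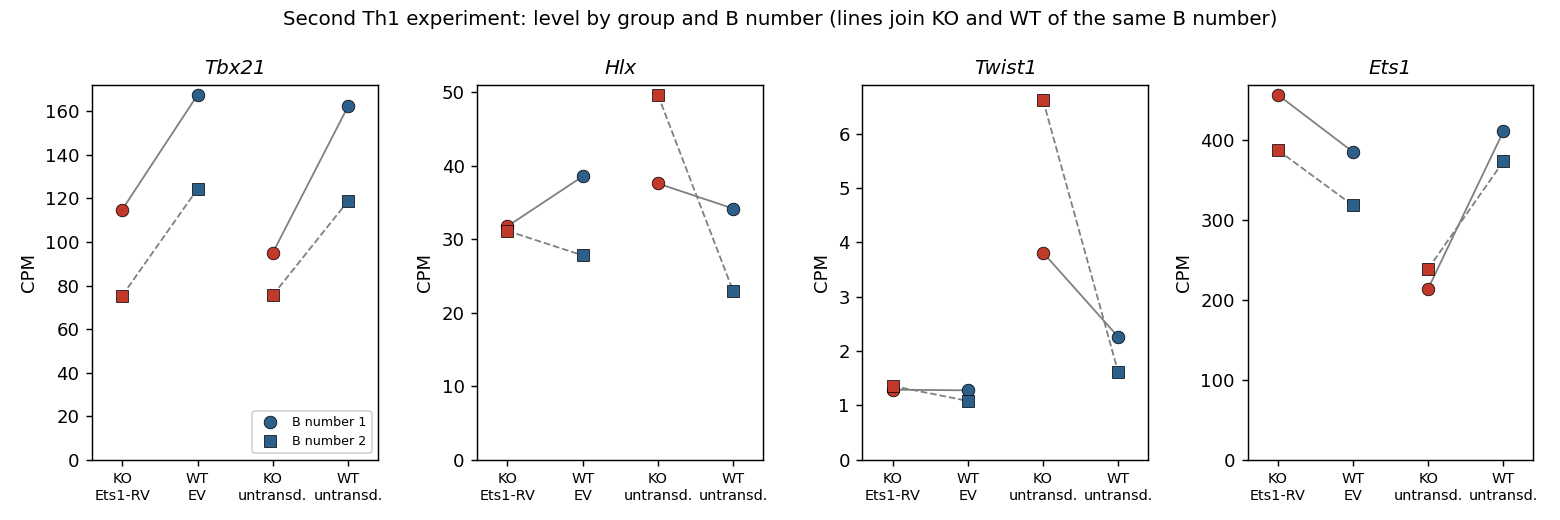
Levels in CPM of Tbx21, Hlx, Twist1 and Ets1 in the second Th1 experiment, with summed libraries of B number 1 as circles and of B number 2 as squares, and lines joining KO and WT of the same B number. Tbx21 is lower in KO than in WT on all 4 lines, while Ets1 in KO with Ets1-RV, at 457 and 387 CPM, is above WT with EV.

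Genes with the most similar pattern were found for each member by the Pearson correlation of log2(CPM + 1) over 24 libraries or summed libraries, among 9472 or 9473 genes with a mean of at least 5 CPM. The points fall into naive, Th2 and 2 sets of Th1 cells and share those cultures, so the values describe likeness across cultures. For Tbx21 these were Fam129a (r = 0.98), Hopx (0.98) and 4930539E08Rik (0.98), and for Hlx Tbkbp1 (0.98), Lrrk1 (0.98) and Gfra1 (0.98). For Bhlhe40 they were Il2ra, the alpha chain of the interleukin 2 receptor, and the metabolic genes Scd1 and Hk2 (each 1.00). Zeb2 was most like Cdv3 (0.98), Zbtb32 (0.97) and Slc4a11 (0.97). Eomes was most like the integrin gene Itga4 (0.96), Sp110 (0.95) and Znfx1 (0.95).

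The remaining members had less close neighbours. Runx3 was most like Ube2z (0.95), Pias4 (0.94) and Mta1 (0.94), Stat4 like Rbm6 (0.93), Klhl6 (0.91) and Ppp1r12a (0.91), and Twist1 like Slc44a1 (0.90), Rufy3 (0.89) and Crispld2 (0.88). Among the members themselves, over the same 24 points, Hlx went most closely with Zeb2 (r = 0.92) and Bhlhe40 (0.90), and Tbx21 with Zeb2 (0.87) and Hlx (0.85). Eomes and Stat4 went together (0.66), and Eomes against Runx3 (-0.72) and Bhlhe40 (-0.71).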

How the data were processed

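RNA was sequenced in 36 libraries, prepared with the strand-keeping SMARTer Pico kit for total RNA and read as pairs, per the labels' protocols. The deposited tables hold read counts of each gene, not normalized, as written by STAR 2.5.0a on GRCm38, per the submitters' processing notes. The 4 summary lines per library, which name no gene, took 63.6% to 76.0% of the tabulated reads and were kept from library sizes and tests. The strand column that held 93.3% to 95.2% of stranded counts was used. Symbols, coordinates and exon lengths came from GENCODE M21, which matched 45143 identifiers and left 563. Antisense genes overlap Runx3, Eomes, Bhlhe40 and Zeb2, and counting was by strand. On the same strand, an exon of Gm28177 (24 counts over all libraries) overlaps Stat4 and Mir5129 (0 counts) overlaps Zeb2, and strand does not separate these.

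Groups came from titles and labels. Counts were tested with edgeR 4.0.16 in R 4.3.3 (TMM factors, filterByExpr, quasi-likelihood test, p-values adjusted by Benjamini-Hochberg over every gene tested, with a threshold of 0.05). The 12 first Th1 and Th2 libraries shared a fit, naive cells were fitted alone, the cultures and naive cells together for comparisons between them, and the second experiment in a fit of 4 groups. Scripts were tested on simulated counts. Alternatives were RLE factors, library totals, no filter on low counts, counts without strand, DESeq2 1.42.0, B or T number as a block, compared groups alone, unsummed libraries and leaving out each library; the joint Th1 fit, library totals and compared groups alone were added after the data were seen. No pair of libraries of a group agreed within sampling noise. Intervals and bounds cover counting error only, since counts carry no molecular identifiers.

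The members, the gene lists and the tests were chosen with earlier results of these data known. All 8 members were named throughout, and of each list the 3 genes with the smallest adjusted p in a comparison could be named. RefSeq windows were matched by symbol for 7 of the 8 members. The Hlx window is not printed because part of it lies inside the longer GENCODE transcript.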

Additional observations from a re-analysis of the deposited data

Results flagged for a closer look

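The genotype effect on Zeb2 differed between Th1 and naive cells by 1.60 on the log2 scale (adjusted p = 0.0168 by edgeR), from a test of the difference itself. Naive KO and WT libraries also differ in sex, and their part in this was not tested.

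A signal appeared in libraries outside the comparisons. The 4 libraries titled KO EV-RV and labelled with the Ets1 virus had 2.65 to 4.90 CPM of Gm27162, a noncoding gene near Ets1 with no count in any labelled KO library of the comparisons. The 4 libraries titled WT Ets1-RV and labelled with the empty virus had no count of it. In both sets this goes against the strain labels, and the libraries were left without a group.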

How the results depend on the processing

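Over all comparisons and alternatives, 1423 member values kept direction and side of the threshold, 35 gained a call, 25 lost one, and 87 that passed in neither setting changed sign. The changes that came with leaving out 1 library are given beside each result. Without the filter on low counts, calls were gained for Tbx21 (adjusted p = 0.000182) and Stat4 (0.00397) between KO and WT Th1 cells, for Runx3 (0.00776), Bhlhe40 (0.00269) and Twist1 (0.0348) between WT Th1 and Th2 cells, and for Runx3 (0.0136) between KO Th1 and Th2 cells. They were also gained for Tbx21 (0.00584) and Hlx (0.0473) in untransduced cells, Tbx21 (0.0136) between KO with Ets1-RV and WT with EV, Twist1 (0.0383) between KO with Ets1-RV and untransduced KO cells, and Eomes (0.0261) and Stat4 (0.00913) in the joint fit. Runx3 also passed between WT Th1 and Th2 cells with library totals alone (0.0246) and between KO Th1 and Th2 cells with the compared groups alone (0.0411). With unsummed libraries, Tbx21 (0.0136) passed between KO with Ets1-RV and WT with EV, and Twist1 (0.0431) between KO with Ets1-RV and untransduced KO cells.

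The counts of genes called were as follows, with all alternatives that moved a count by more than 1.5 times, and the cause was not tested. Between KO and WT, naive cells had 1987 calls, 865 in DESeq2 and 399 to 1217 with a library left out. Th1 cells had 462, with 835 unfiltered and 176 to 469 with a library left out. Th2 cells had 41, with 224 unfiltered, 79 in DESeq2, 67 with the compared groups alone and 14 to 50 with a library left out. Untransduced cells had 137, with 416 unfiltered, 47 with library totals alone, 266 unsummed and 22 to 92 with a library left out. The joint fit had 524, with 951 unfiltered and 290 to 639 with a library left out. KO against WT effects in Th1 and Th2 cells differed for 0 genes, 213 unfiltered, 20 in DESeq2 and 0 to 3 with a library left out, and those in Th1 and naive cells for 428, with 170 to 432. KO with Ets1-RV against WT with EV had 62, with 257 unfiltered, 12 with library totals alone, 441 unsummed and 10 to 64 with a library left out. KO with Ets1-RV against untransduced KO had 21, with 212 unfiltered, 4 with library totals alone, 34 in DESeq2, 126 unsummed, 7 with the compared groups alone and 0 to 38 with a library left out. WT with EV against untransduced WT had 0, with 17 unfiltered and 0 to 5, and the gap contrast 0, with 29 unfiltered, 3 in DESeq2, 6 unsummed and 0 to 4. WT Th1 against Th2 had 3717 (2787 to 3706 with a library left out), KO Th1 against Th2 2210 (1380 to 2046), and WT Th1 and Th2 against naive 10676 (9974 to 10397) and 10782 (10073 to 10638).

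The sign changes were of values that passed in neither setting, and most came with a library left out, on the log2 scale and as lowest to highest. For the KO to WT difference of naive cells the ranges were -0.11 to 0.11 (Stat4). The KO to WT difference of Th1 cells ran -0.059 to 1.26 (Twist1), -0.13 to 0.11 (Hlx) and -0.15 to 0.039 (Runx3). For the KO to WT difference of Th2 cells the ranges were -0.52 to 0.29 (Hlx), -0.16 to 0.0055 (Runx3), -0.81 to 0.53 (Twist1) and -0.0001 to 0.21 (Zeb2). The KO effect in Th1 minus Th2 cells ran -0.081 to 0.12 (Runx3), -0.21 to 0.67 (Tbx21), -0.28 to 0.53 (Hlx), -1.04 to 0.53 (Eomes), -0.054 to 0.31 (Bhlhe40) and -0.22 to 1.69 (Twist1). For the KO effect in Th1 minus naive cells the ranges were -0.74 to 0.25 (Tbx21). The KO to WT difference of untransduced cells ran -0.55 to 0.036 (Stat4). For the difference of KO with Ets1-RV from WT with EV the ranges were -0.94 to 0.50 (Eomes), -0.15 to 0.024 (Hlx), -0.27 to 0.20 (Runx3), -0.13 to 0.22 (Bhlhe40) and -0.78 to 0.11 (Stat4). The difference of WT with EV from untransduced WT cells ran -0.13 to 0.10 (Zeb2), -0.27 to 0.32 (Stat4), -0.40 to 0.066 (Runx3), -0.92 to 0.083 (Eomes), -0.055 to 0.16 (Tbx21) and -0.13 to 0.018 (Bhlhe40). For the difference of KO with Ets1-RV from untransduced KO cells the ranges were -0.51 to 0.40 (Stat4), -0.24 to 0.38 (Tbx21), -0.35 to 0.19 (Zeb2), -0.076 to 0.28 (Bhlhe40) and -0.53 to 0.91 (Eomes). The gap contrast ran -0.52 to 0.38 (Stat4), -0.29 to 0.33 (Tbx21), -0.34 to 0.20 (Zeb2), -0.017 to 0.34 (Bhlhe40) and -0.081 to 1.36 (Eomes). For the joint fit the ranges were -0.025 to 0.17 (Runx3) and -0.044 to 0.14 (Zeb2). Other settings changed the sign of small values. Stat4 in the KO to WT difference of naive cells was at 0.0063 unfiltered and 0.0076 with library totals alone. Runx3 in the KO effect in Th1 minus Th2 cells was at -0.0057 with RLE factors, -0.0025 unfiltered, -0.030 with library totals alone and -0.0056 in DESeq2. Eomes in the difference of KO with Ets1-RV from WT with EV was at -0.018 with library totals alone and -0.020 without strand. Zeb2 in the difference of WT with EV from untransduced WT cells was at 0.001 unfiltered, 0.0031 with library totals alone, 0.007 without strand and 0.011 unsummed. Stat4 in the difference of KO with Ets1-RV from untransduced KO cells was at 0.017 unfiltered and 0.037 with library totals alone. Stat4 in the gap contrast was at 0.019 with library totals alone.

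The check of the T numbers did not show pairs in the first Th1 and Th2 libraries, where deviations of same-numbered libraries from their group means correlated at -0.14 to 0.28. They correlated at -0.06 in naive cells and at -0.07 to 0.41 in the second experiment, where the B number also goes with sex. With n = 2 per group the 2 deviations of a group mirror each other, so the check could not decide on pairs in those 2 sets. With the T or B number as a block, 63 genes were called in Th2 cells, 212 in untransduced cells, 95 between KO with Ets1-RV and WT with EV, 45 between KO with Ets1-RV and untransduced KO, and 1 in the gap contrast. Under the block Tbx21 (adjusted p = 0.0214) and Stat4 (0.0393) passed in Th1 cells, Runx3 between Th1 and Th2 cells of WT (0.0155) and KO (0.0214), and Tbx21 in untransduced cells (0.0286) and between KO with Ets1-RV and WT with EV (0.0416). Uncalled Stat4 values changed sign under it, -0.005 between WT with EV and untransduced WT, 0.0084 between KO with Ets1-RV and untransduced KO, and 0.013 in the gap contrast. Depth limits Hlx and Twist1 in naive cells, with 1 and 2 counts in WT, and Eomes and Twist1 in Th1 and Th2 cells.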

Other observations

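The 8 libraries without a group are given by value. In the 4 titled KO EV-RV and labelled with the Ets1 virus, Tbx21 had 145, 148, 129 and 145 CPM and Ets1 had 594, 565, 582 and 632 CPM. In the 4 titled WT Ets1-RV and labelled with the empty virus, Tbx21 had 83.8, 90.1, 66.7 and 61.9 CPM and Ets1 had 191, 189, 269 and 252 CPM. Tbx21 was higher in the first of these sets than in the second. Zeb2, at 48.8 to 53.1 and 64.6 to 85.5 CPM, and Hlx, at 25.1 to 28.5 and 31.1 to 34.9 CPM, were lower in the first set. These 3 ranges did not overlap, and the share of all genes without overlap was not determined. Each set holds 2 B numbers with 2 T numbers each. Stat4 was at 17.01 to 30.1 and 15.01 to 19.2 CPM, Runx3 at 105 to 131 and 125 to 164 CPM, Eomes at 2.59 to 7.58 and 1.88 to 6.69 CPM, Bhlhe40 at 941 to 1051 and 851 to 973 CPM, and Twist1 at 0.531 to 1.32 and 0 to 3.72 CPM, with overlap in each. No condition was assigned to these libraries from their values.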
